A study of Mus musculus with 4 samples.

Results

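Bidirectional promoter long non-coding RNAs are transcripts that begin close to the start of a protein-coding gene and run away from it on the opposite strand. The members were chosen by the biotype written beside each row of the deposited expression table, bidirectional_promoter_lncRNA, which 122 of its 31600 features carry. The biotype comes from annotation and not from measured values, but the class was taken up with results of these libraries already known. Every count given here over the class is therefore a description.

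Many mammalian promoters start transcription in both directions. The coding RNA is usually spliced and stable, while the upstream transcript is often short-lived and scarce, and some upstream transcripts are processed into annotated lncRNAs. The testis is known for broad transcription of non-coding genes, above all in meiotic and later germ cells.

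The study profiled long RNA in mouse spermatogonial stem cells, the germ-line stem cells that maintain spermatogenesis, after differentiation and as controls. There were 2 differentiation libraries and 2 control libraries, and the control samples are labelled with the genotype WT. RNA was extracted with TRIzol, and ribosomal RNA was removed. The means and duration of differentiation, and any separate culture or animal behind each of the 2 samples per group, are not stated in the labels, so that p-values measure only the spread between these libraries, which may be technical.

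Steps between low expression values gave scales of about 17772000 and 20363300 fragments for the differentiation libraries, against 19461700 and 20650200 for the control libraries. Marker genes of cell types differed between the groups. All 15 meiotic prophase markers tested were called higher, with summed levels of 1242 and 1264 FPKM (fragments per kilobase of exon, scaled to the depth of the library) in differentiation, against 206 and 209 FPKM in control. Of 15 markers of undifferentiated spermatogonia, 12 were lower and 1 was higher, with sums of 51.0 and 50.8 FPKM in differentiation, against 156 and 160 FPKM in control. Fibroblast and peritubular markers summed to 207 and 193 FPKM in differentiation, against 535 and 541 FPKM in control, and 13 of the 14 tested were lower. Macrophage and leukocyte markers summed to 19.01 and 18.4 FPKM in differentiation, against 75.0 and 71.4 FPKM in control, with 9 of 10 lower. Of differentiating spermatogonia markers 6 of 7 were lower, of spermatid markers 6 of 11 were higher and 0 lower, and of Sertoli cell markers 4 of 8 were higher and 3 lower, with sums of 145 and 134 FPKM in differentiation, against 128 FPKM in each control library. Of 4 Leydig cell markers tested 2 were lower and 1 higher, and of 4 endothelial markers 1 was lower. Only 14 of 15 spermatid, 5 of 6 Leydig cell and 9 of 10 Sertoli cell markers were among the 31600 features. No feature deposited stood at 0 in all 4 libraries, so absent markers may be undetected ones. The germ cell, fibroblast and peritubular, and leukocyte lists moved with the groups in which the lncRNAs are compared, and their part in the results was not tested. In bulk RNA, a change in the number of cells of a type and a change in RNA per cell cannot be told apart.

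The promoters that the results turn on are shown first. RefSeq windows on GRCm38.p6, each running from 250 bases before to 50 bases after the start of the coding gene, were found for 86 of the 120 lncRNAs with a coding neighbour. Each window is written 5′ to 3′ on the strand of the coding gene, so that the lncRNA is read leftward from its own start. Capitals mark GGGCGG (a GC box), CCAAT, and CNGTTA or CNGTTG (the core letters of a MYB site), on either strand. The windows belong to Cep83 (chr10:94688540-94688839, plus strand), Actg1 (chr11:120348446-120348745, minus strand), 1700018B08Rik (chr8:121541905-121542204, minus strand) and Ropn1l (chr15:31453640-31453939, minus strand), whose lncRNAs Cep83os, 0610009L18Rik, Gm27045 and AC115735.5 gave the largest changes alone or relative to their partners.
Cep83: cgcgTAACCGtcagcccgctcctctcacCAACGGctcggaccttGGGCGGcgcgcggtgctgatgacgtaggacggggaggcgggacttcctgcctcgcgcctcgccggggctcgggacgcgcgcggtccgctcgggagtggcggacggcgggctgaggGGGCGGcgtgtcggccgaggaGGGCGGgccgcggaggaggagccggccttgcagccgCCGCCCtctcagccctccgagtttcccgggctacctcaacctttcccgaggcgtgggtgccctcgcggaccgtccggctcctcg
Actg1: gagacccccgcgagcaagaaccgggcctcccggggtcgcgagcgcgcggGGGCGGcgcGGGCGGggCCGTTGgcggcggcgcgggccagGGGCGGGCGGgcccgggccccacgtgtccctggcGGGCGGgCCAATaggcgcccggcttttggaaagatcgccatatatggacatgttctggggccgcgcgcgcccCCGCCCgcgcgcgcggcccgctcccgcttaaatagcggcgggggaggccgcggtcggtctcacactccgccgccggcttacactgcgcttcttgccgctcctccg
1700018B08Rik: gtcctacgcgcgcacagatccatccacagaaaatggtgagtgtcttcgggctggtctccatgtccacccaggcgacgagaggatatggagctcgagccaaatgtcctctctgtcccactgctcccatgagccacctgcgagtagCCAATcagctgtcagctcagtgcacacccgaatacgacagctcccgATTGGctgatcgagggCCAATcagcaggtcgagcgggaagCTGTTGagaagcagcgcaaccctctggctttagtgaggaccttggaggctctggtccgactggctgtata
Ropn1l: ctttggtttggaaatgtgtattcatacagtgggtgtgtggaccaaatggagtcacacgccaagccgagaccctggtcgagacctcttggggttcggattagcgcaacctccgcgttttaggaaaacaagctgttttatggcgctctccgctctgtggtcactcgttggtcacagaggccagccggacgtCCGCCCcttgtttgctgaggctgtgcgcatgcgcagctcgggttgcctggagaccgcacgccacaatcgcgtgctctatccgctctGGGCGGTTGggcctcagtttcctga

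Counted from base 1 at the left end of each window, Cep83os started at base 37, 0610009L18Rik at base 68, Gm27045 at base 125 and AC115735.5 at base 202. The nearest annotated coding starts lay at bases 115, 204, 251 and 203 of the same 4 windows. The starts of AC115735.5 and Ropn1l were thus 1 base apart, and the others were separated by 78, 136 and 126 bases. The GC content was 75.7% in the Cep83 window, 77.3% in the Actg1 window, and 58.0% in each of the other two.

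By position, 120 of the 122 lncRNAs had a protein-coding start on the opposite strand, head to head, within 1000 bases, and 111 had it within 300 bases. The coding starts belonged to 119 genes, because Gm27045 and 1700030M09Rik share the gene 1700018B08Rik. In 90 pairs the starts lay apart, by a median of 107.5 bases, and in 30 pairs the 5′ ends of the genes overlapped. AC121264.1 lay beyond the limit and CT009546.1 had no such neighbour. The class was unevenly spread over the genome: 67 of the 122 lncRNAs were on chromosomes 12, 10 and 8, with 25, 21 and 21 members, and only 12 chromosomes held any. GENCODE M21 lists 190 lncRNAs of this type, 76 of them on the same 3 chromosomes, and the 122 of the table are all among them. Divergent lncRNAs elsewhere carry other biotypes in this annotation.

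The partner promoters were rich in CpG. Their median GC content was 65.7% and their median number of CpG dinucleotides was 25 per 300 bases, against 58.7% and 17 in 17368 promoters of protein-coding genes in the table. GGGCGG stood in 74.4% of the 86 partner windows, against 53.9% of the coding promoters and 35.7% of all 32851 RefSeq promoters. CCGGAAG, the letters of an ETS site, stood in 23.3% of partner windows and in 13.5% of coding promoters, while TATAAA stood in 5.81% and 9.13%. CCAAT was found in 34.9% and 37.5%, and TGACGTCA in 2.33% and 2.57%. CNGTTA or CNGTTG occurred in 45.3% of partner windows and 46.3% of coding promoters. It stood in 18 of the 30 partner windows whose lncRNA was called higher in differentiation and in 11 of the 32 whose tested lncRNA was not called. In the same 2 sets GGGCGG stood in 26 and 21 windows, CCAAT in 12 and 10, and CCGGAAG in 7 and 8. The median GC content of these 2 sets was 69.5% and 60.3%, and the differences were not tested. Motifs may overlap, as GGGCGG and CGGTTG do in the Ropn1l window, and a match of letters is a description only.

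Most bidirectional promoter lncRNAs were scarce. The median of their mean levels over the 4 libraries was 1.23 FPKM, against 3.57 FPKM for protein-coding features; 56 had a mean under 1 FPKM and 16 reached 5 FPKM. Their exonic lengths ran from 249 to 7303 bases with a median of 1412, and 33 had a single exon block. In all, 115 were above 0 in every library. Gm40383 and 4930434F21Rik were listed at 0 in both control libraries, and Gm34730 in both differentiation libraries. The 122 lncRNAs together summed to 353 and 369 FPKM in differentiation, against 211 and 215 FPKM in control. Without Cep83os, the sums were 330 and 346 FPKM in differentiation, against 209 and 212 FPKM in control, so the class as a whole stood higher in both differentiation libraries also without its leading member.

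Of the 122 lncRNAs, 89 had a mean of at least 0.5 FPKM and were tested by limma on log2(FPKM + 1), together with 23138 features in all. In differentiation, 40 were called higher (44.9%) and 3 lower (3.37%) at an adjusted p under 0.05, and 46 were not called. Over all features tested, 29.6% were called higher and 27.0% lower. The median log2 fold change of FPKM + 1 was 0.36 over the 89 lncRNAs and 0.01 over all features, and single values ran from -0.71 to 3.01. The libraries of the groups did not overlap for 55 lncRNAs that were higher and 11 that were lower, against 40.9% and 39.1% of all features. The tested lncRNAs are not the whole class: 10 of them passed the filter only through their differentiation mean and 5 only through their control mean, and such features had to differ. Among the 74 with both group means of at least 0.5 FPKM, 32 were higher and 3 lower, against 27.3% and 27.5% of all features with that property. The filter left out 33 lncRNAs with a median mean of 0.261 FPKM. Among these, libraries did not overlap for 10 that were higher and 10 that were lower, against 32.2% and 27.9% of the 8462 features left out in all. The lowest mean tested was 0.542 FPKM and the highest left out was 0.499 FPKM.

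Depth limits these calls. A tested lncRNA had a median of 47 and 57 fragments in the differentiation libraries, against 31 and 38 in the control libraries. Of the 40 lncRNAs called higher, 2 had fewer than 50 fragments over the 4 libraries. Without the second differentiation library 26 of the 89 lncRNAs were called higher (29.2%) and 0 lower, against 22.0% and 18.8% of all features in the same fit. Without any other library 32 to 35 were higher (36.0% to 39.3%) and 1 was lower, against 22.4% to 24.1% of all features higher and 19.5% to 20.0% lower.

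**Figure D1:**
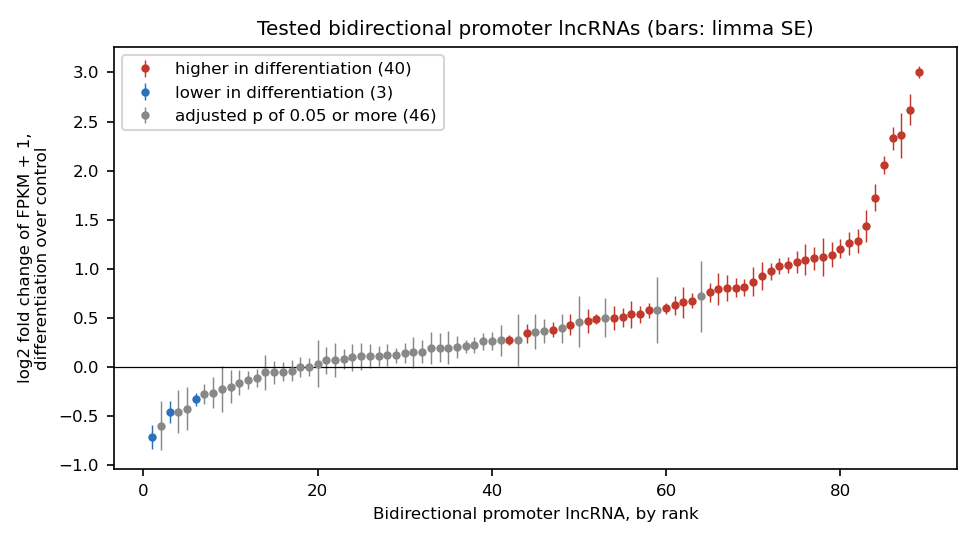
Log2 fold change of FPKM + 1, differentiation over control, for the 89 bidirectional promoter lncRNAs tested, ordered by rank on the horizontal axis; bars are limma standard errors and colours give the call at an adjusted p under 0.05. The 40 lncRNAs called higher reach 3.01, while the 3 called lower lie between -0.71 and -0.33.

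Cep83os had the largest change of the class. It is transcribed away from Cep83, which encodes a distal appendage protein of the centriole needed for cilium assembly. Cep83os (chr10:94671025-94688576, minus strand, 6566 exonic bases) had 22.4 and 22.9 FPKM in differentiation, against 1.85 and 2.05 FPKM in control. These values rest on 2614 and 3065 fragments in differentiation, against 236 and 278 in control, far more than for most of the class. The groups were well apart, with means of 22.7 ± 0.369 FPKM in differentiation and 1.95 ± 0.144 FPKM in control (SD, n = 2 each). The log2 fold change was 3.01 (limma SE 0.0586, adjusted p = 9.45e-05). Its exons share 344 bases on the other strand with Gm49167, which had 10.7 and 11.2 FPKM in differentiation, against 1.27 and 0.997 FPKM in control. Whether the authors' counting used strand is not stated, so that the overlapping bases cannot be assigned to 1 of the 2 genes.

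Gm27045 and 1700030M09Rik both have 1700018B08Rik as their head-to-head coding gene, each with a different annotated start of it. All 1402 exonic bases of Gm27045 lie within the span of that gene on the other strand, and 52 are shared with its exons. Gm27045 (chr8:121542080-121543481, plus strand) had 7.18 and 6.06 FPKM in differentiation, against 0.110 and 0.380 FPKM in control, where it had 3 and 11 fragments. Its log2 fold change was 2.62 (limma SE 0.157, adjusted p = 0.000627). The coding gene had 3.96 and 4.71 FPKM in differentiation, against 0.278 and 0.524 FPKM in control, and was called higher too, by 1.93 on the log2 scale of FPKM + 1, in which such changes are given throughout. 1700030M09Rik, the second lncRNA of the locus, had 1.33 and 1.56 FPKM in differentiation, against 0.280 and 0.527 FPKM in control, and was called higher by 0.80 (limma adjusted p = 0.00993).

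1700016J18Rik begins within Armc2, whose protein is required for the axoneme of the sperm flagellum in mice. 1700016J18Rik (chr10:42018216-42018810, plus strand) had 9.72 and 6.11 FPKM in differentiation, against 0.825 and 0.583 FPKM in control, and its log2 fold change was 2.36 (limma SE 0.231, adjusted p = 0.00216). With an exonic length of 249 bases it is the shortest of the class, and its control values stand for 4 and 3 fragments. Armc2 had 2.17 and 2.12 FPKM in differentiation, against 0.336 and 0.243 FPKM in control, and was called higher by 1.29; it shares 46 exonic bases with the lncRNA.

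0610009L18Rik lies head to head with Actg1, the gene of cytoplasmic gamma-actin. 0610009L18Rik (chr11:120348678-120351190, plus strand) had 12.9 FPKM in each differentiation library, against 2.08 and 1.49 FPKM in control, and its log2 fold change was 2.33 (limma SE 0.120, adjusted p = 0.000454). Actg1 had 208 and 201 FPKM in differentiation, against 207 and 226 FPKM in control, and was not called (log2 fold change -0.08, limma adjusted p = 0.263). The lncRNA thus differed between groups beside a coding gene whose libraries overlapped.

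4930434F21Rik, beside the transmembrane protein gene Tmem45b, had 3.06 and 3.25 FPKM in differentiation and was listed at 0 in both control libraries. It was called higher (limma adjusted p = 0.000342). Taking 3 fragments over the control group as the limit, 0.0885 FPKM, it was at least 35.7-fold higher in differentiation. Tmem45b had 2.04 and 2.44 FPKM in differentiation, against 0.816 and 0.482 FPKM in control, and was called higher by 0.98. Without the second differentiation library, the limma adjusted p of Tmem45b was 0.0542.

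9330151L19Rik (chr12:69197211-69199867, plus strand) had 13.2 and 12.5 FPKM in differentiation, against 3.76 and 2.68 FPKM in control, and its log2 fold change was 1.73, called higher (SE 0.139, limma adjusted p = 0.00133). It shares 1107 of its 2545 exonic bases, on the other strand, with Dnaaf2, a factor for the assembly of axonemal dynein arms. Dnaaf2 had 9.74 and 9.66 FPKM in differentiation, against 2.62 and 2.17 FPKM in control, a log2 fold change of 1.66. Reads of the 2 genes cannot be told apart over these bases without strand. Its head-to-head partner, AC099934.3 in the table and Gm49383 in GENCODE, had 2.55 and 2.31 FPKM in differentiation, against 1.30 and 2.24 FPKM in control, and was not called.

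The other lncRNAs with the largest rises stood beside zinc finger genes. Gm36371, 519 bases from Zfp787, had 4.29 and 5.57 FPKM in differentiation, against 0.978 and 1.40 FPKM in control (log2 fold change 1.43, SE 0.166, limma adjusted p = 0.00344). Zfp787 itself had 5.54 FPKM in each differentiation library, against 5.63 and 5.48 FPKM in control. 2410022M11Rik, beside Zmym5, had 3.42 and 4.24 FPKM in differentiation, against 0.941 and 1.01 FPKM in control, with a log2 fold change of 1.28. Zmym5 was also called higher, by 0.54.

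The test called 3 lncRNAs lower. F730043M19Rik and Gm16793 had low means of 1.46 and 0.962 FPKM, where the pseudocount holds down the log2 fold change. D430020J02Rik had a mean of 4.10 FPKM, above the class median of 1.23 FPKM. The ratio of mean FPKM, differentiation over control, was 0.418 for F730043M19Rik, 0.510 for Gm16793 and 0.752 for D430020J02Rik. F730043M19Rik, beside Atxn7l1, had 0.891 and 0.831 FPKM in differentiation, against 2.30 and 1.83 FPKM in control, and fell by 0.71 on the log2 scale (SE 0.120, limma adjusted p = 0.00969). Of the 4610 exonic bases of F730043M19Rik, 3251 lie within the spans of other genes, and 279 are shared, on the other strand, with exons of Gm16267. Gm16267 had 0.461 and 0.403 FPKM in differentiation, against 1.75 and 1.32 FPKM in control, and was called lower (log2 fold change -0.82, limma adjusted p = 0.00767). Gm16793 had 0.569 and 0.731 FPKM in differentiation, against 1.19 and 1.35 FPKM in control, a log2 fold change of -0.46. Its partner Mfhas1, with which it shares 135 exonic bases, was called lower as well (log2 fold change -0.83). D430020J02Rik, beside the condensin II subunit gene Ncapg2, had 3.44 and 3.59 FPKM in differentiation, against 4.70 and 4.66 FPKM in control, a log2 fold change of -0.33. None of the 3 calls held when either differentiation library was left out: the limma adjusted p was 0.0564 and 0.0632 for F730043M19Rik, 0.0928 and 0.0557 for Gm16793, and 0.0741 and 0.0604 for D430020J02Rik. The last 2 were not called without either control library either, with limma adjusted p values of 0.0709 and 0.108 for Gm16793 and 0.0821 and 0.0758 for D430020J02Rik.

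**Figure D2:**
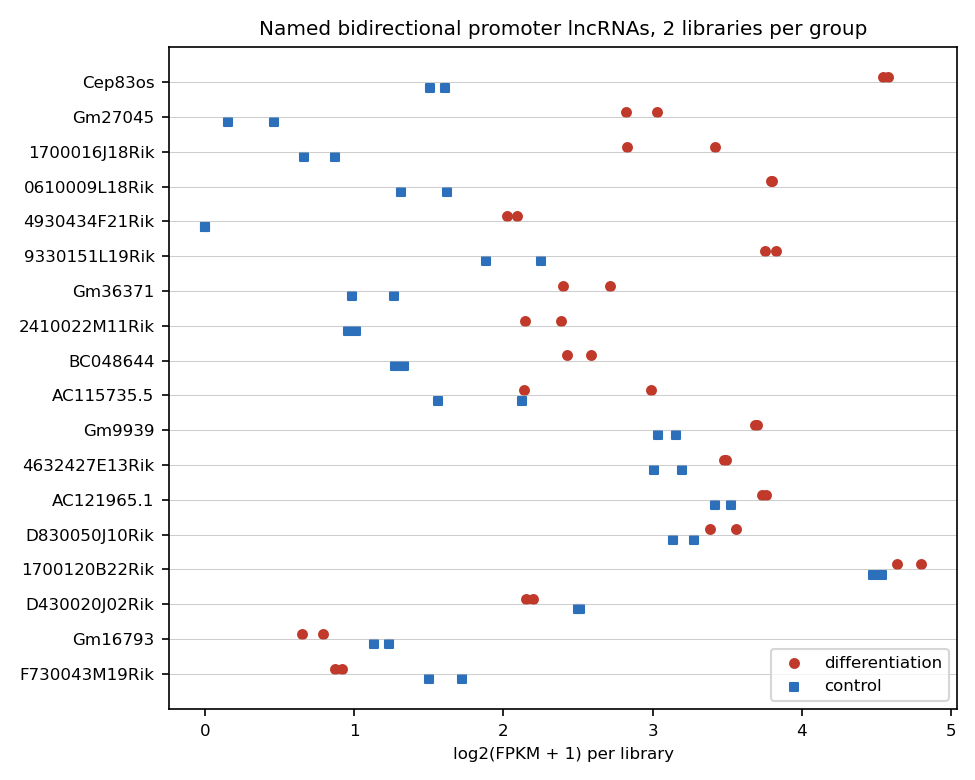
Log2(FPKM + 1) in each library for the 18 tested lncRNAs named by rule, ordered by log2 fold change; circles are the 2 differentiation libraries and squares the 2 control libraries. The groups come closest for AC115735.5, and 4930434F21Rik stands at 0 in both control libraries.

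Of the 6 most abundant members, those other than Cep83os had log2 fold changes of at most 0.60. 1700120B22Rik, which shares 267 of its 464 exonic bases with the ubiquitin ligase gene Herc4, had the highest mean of the class, with 23.9 and 26.9 FPKM in differentiation, against 22.3 and 21.3 FPKM in control. The libraries did not overlap, but the test did not call it (log2 fold change 0.21, limma adjusted p = 0.0573). Gm9939, beside the tankyrase gene Tnks, had 11.9 and 11.98 FPKM in differentiation, against 7.21 and 7.92 FPKM in control, and was called higher by 0.60. D830050J10Rik had 10.8 and 9.43 FPKM in differentiation, against 8.70 and 7.80 FPKM in control, and was not called (log2 fold change 0.26, limma adjusted p = 0.0658). Gm9939 shares 635 exonic bases with Tnks. AC121965.1, named Ndufb1-ps in GENCODE and thus possibly sharing reads with another copy, had 12.5 and 12.3 FPKM in differentiation, against 10.5 and 9.70 FPKM in control, and was called higher by 0.27. 4632427E13Rik, the longest member, beside the Golgi GTPase gene Rab30, had 10.1 and 10.2 FPKM in differentiation, against 8.18 and 7.07 FPKM in control, and was called higher by 0.38. The call of AC121965.1 was lost with quantile normalization (limma adjusted p = 0.0600) and without the second control library or either differentiation library (limma adjusted p of 0.0507 to 0.0853), and that of 4632427E13Rik without either differentiation library (0.0918 and 0.0976).

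Calls were also counted apart for lncRNAs with and without overlap with other genes. Of the 46 tested lncRNAs that share no exonic base with another gene, 21 were higher and 1 lower, with a median log2 fold change of 0.36. Of the 43 that share some, 19 were higher and 2 lower, with a median of 0.27. Of the 39 with no exonic base inside the span of another gene, 18 were higher and 1 lower. Over all features tested, whatever their overlap, 29.6% were higher and 27.0% lower. These counts keep the lncRNAs that passed the filter only through 1 group mean and so had to differ.

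Other classes of feature are set beside the bidirectional promoter lncRNAs as a description, and the difference between classes was not tested. Of 1066 lincRNAs tested, 36.4% were called higher and 15.4% lower, with a median log2 fold change of 0.21. Of 1679 antisense RNAs, 27.2% were higher and 19.8% lower. Protein-coding features were divided almost evenly, with 4680 higher and 4901 lower of 14397. When lincRNAs were restricted to the 198 that also lie head to head with a coding start within 1000 bases, 94 were higher (47.5%) and 16 lower (8.08%), with a median log2 fold change of 0.39. These shares of higher calls and medians are near those of the bidirectional promoter class, so that the pattern was not seen in the biotype alone. Head-to-head antisense RNAs had 33.9% higher and 14.9% lower of 623. Among features with a mean between 0.5 and 5 FPKM, 29 of 73 bidirectional promoter lncRNAs were higher and 3 lower, against 23.2% and 23.0% of all features at that level. The shares by class and by level also keep features that passed the filter only through 1 group mean and so had to differ.

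**Figure D3:**
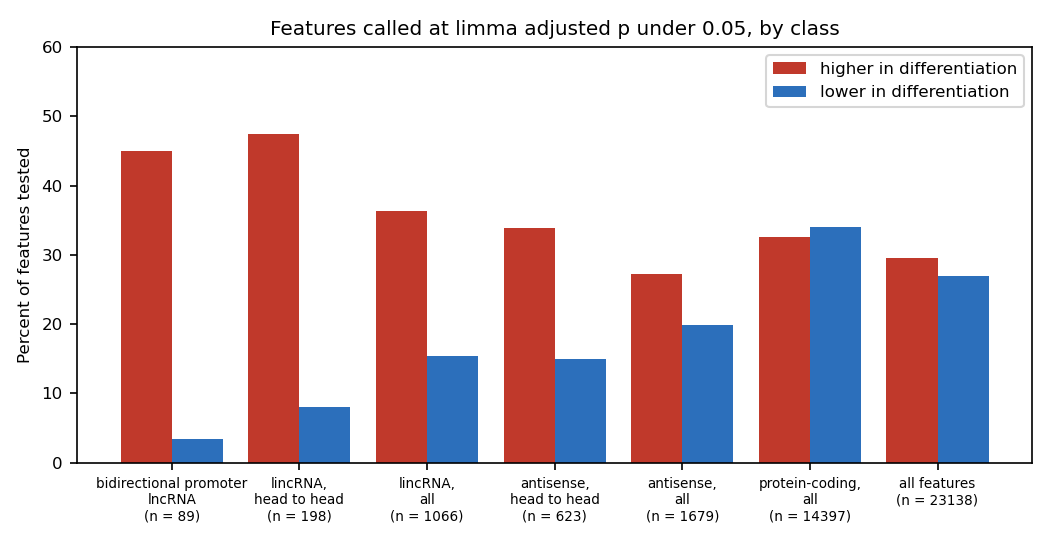
Percentage of tested features called higher (left bar) and lower (right bar) in differentiation at a limma adjusted p under 0.05, by class, with the number tested under each class. Bidirectional promoter lncRNAs (44.9% and 3.37%) and head-to-head lincRNAs (47.5% and 8.08%) both had many higher and few lower calls, while all features had 29.6% and 27.0%.

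The coding partners were called in both directions. In 88 pairs both genes were tested, and of the partners 35 were higher, 23 lower and 30 not called, with a median log2 fold change of 0.05. Over all 2680 head-to-head pairs with both genes tested, 1079 partners were higher and 758 lower, with a median of 0.08. Among all protein-coding features tested, 32.5% were higher and 34.0% lower. The partner had the higher mean level per length in 74 pairs, and the median ratio of partner to lncRNA was 4.20. Where the lncRNA was higher, the partner was higher in 21 pairs, lower in 8 and not called in 11. Where the lncRNA was not called, the partner was higher in 14, lower in 14 and not called in 17. The median log2 fold change of the partners was 0.33 where the lncRNA was higher and 0.04 where it was not called. In all, 22 of the 88 pairs (25.0%) were called in the same direction and 8 (9.09%) in opposite directions, against 32.8% and 9.59% of all 2680 head-to-head pairs in the table with both genes tested. The share of opposite calls was thus near that of all such pairs, and the share of same-direction calls was below it, with no test of the difference. Opposite calls came in 183 of the 1230 pairs between coding genes and in 17 of 198 pairs with a lincRNA. They came in 14 of 189 pairs with a processed transcript and 26 of 623 with an antisense RNA. Across the 88 pairs, the log2 fold changes of lncRNA and partner had a Spearman correlation of 0.44 and a Pearson correlation of 0.47. The points share the same 4 libraries, and 35 of the pairs share exonic bases. The Spearman correlation was 0.35 over the 53 pairs that share none.

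The change of each lncRNA relative to its partner was tested by limma on the difference of the 2 log2(FPKM + 1) values per library, over all 2680 head-to-head pairs of the annotation with both genes tested. The difference passed in 44 of the 88 pairs, with the lncRNA change above that of the partner in 36 and below it in 8. These pairs include lncRNAs that passed the filter only through their differentiation or control mean and so had to differ. The pair counts here, above and below were not made without them. Over all 2680 pairs, 25.6% passed with the first gene above its partner and 21.6% with it below. In 1230 of these pairs both genes are coding, and which of them is first is arbitrary. For head-to-head lincRNAs, 71 of 198 passed above and 22 below. The pseudocount holds down changes of scarce genes, so these differences are on the scale of FPKM + 1. Leaving out a library, the lncRNA was above its partner in 26 to 30 pairs and below it in 4 to 5, with 26 above without the first differentiation library.

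**Figure D4:**
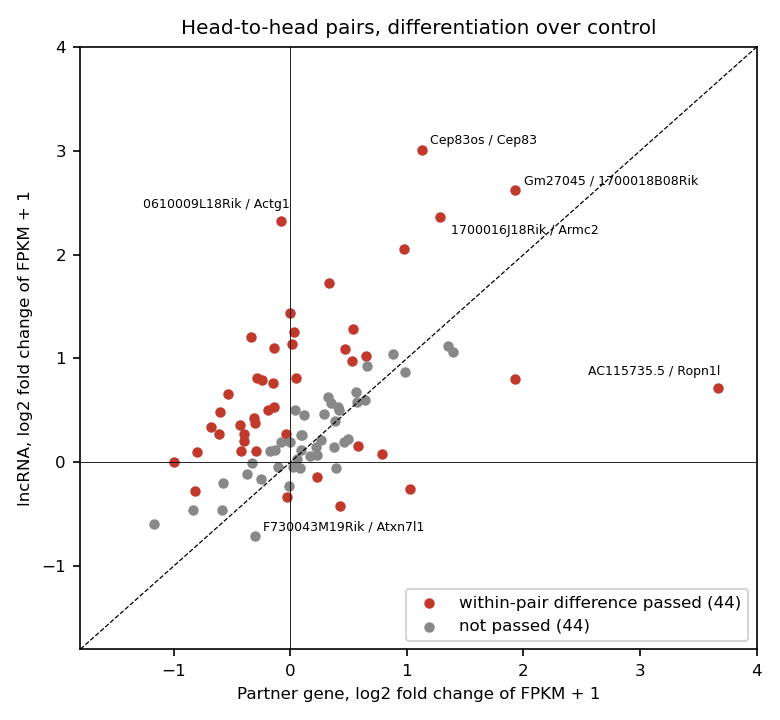
Log2 fold change of FPKM + 1, differentiation over control, of the coding partner (horizontal) and the lncRNA (vertical) in 88 head-to-head pairs; red points passed the within-pair test and the dashed line marks equal change. Of the 44 pairs that passed, 36 lie above the line and 8 below it.

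The symbol names the partner for 2 lncRNAs only. Cep83 had 15.8 and 16.8 FPKM in differentiation, against 6.64 and 7.16 FPKM in control, and was called higher by 1.13. Cep83os was thus above Cep83 in both differentiation libraries and below it in both control libraries, and the within-pair difference was 1.88 (SE 0.0746, limma adjusted p = 0.000152). Lrp8os3 lies beside Lrp8, which encodes a receptor of the LDL receptor family. Lrp8os3 had 0.0954 and 0.250 FPKM in differentiation, against 0.145 and 0.137 FPKM in control, and was too scarce to be tested. Lrp8 had 1.97 and 2.03 FPKM in differentiation, against 2.54 and 2.46 FPKM in control, and was not called (log2 fold change -0.22, limma adjusted p = 0.0889). In GENCODE, AL591207.1 is also named for a neighbour, as Dio3os, and lies 896 bases from Dio3, the gene of a deiodinase that inactivates thyroid hormone. It had 0.0669 and 0 FPKM in differentiation, against 0.183 and 0.144 FPKM in control, and was not tested. Dio3 had 0.222 and 0.121 FPKM in differentiation, against 1.39 and 0.644 FPKM in control, and was called lower (log2 fold change -0.76).

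The largest within-pair difference ran the other way. Ropn1l, whose protein belongs to the sperm flagellum, had 40.0 and 41.0 FPKM in differentiation, against 1.99 and 2.58 FPKM in control, and was called higher by 3.67. AC115735.5, starting 1 base from it, had 3.40 and 6.93 FPKM in differentiation, against 3.37 and 1.95 FPKM in control, so that the lower differentiation library nearly met the higher control library and the gene was not called (log2 fold change 0.72, SE 0.361, limma adjusted p = 0.162). The within-pair difference was -2.95 (SE 0.379, limma adjusted p = 0.00319). In the windows printed above, this pair had the closest starts, and its coding gene changed most of all partners named.

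Other pairs came apart in the lncRNA's favour. The difference was 2.41 for 0610009L18Rik over Actg1 (SE 0.151, limma adjusted p = 0.000428) and 1.44 for Gm36371 over Zfp787. It was 1.40 for 9330151L19Rik over AC099934.3, which was lost without either differentiation library (limma adjusted p of 0.0520 and 0.0566) and with a pseudocount of 0.1 (0.0502). For Gm27045 over 1700018B08Rik it was 0.69, and was lost without the first differentiation library or either control library (limma adjusted p of 0.0860 to 0.104). For 1700016J18Rik over Armc2 it was 1.07, and was lost without the second control library (limma adjusted p = 0.0604) and with a pseudocount of 0.1 (0.113). BC048644 had 4.38 and 5.02 FPKM in differentiation, against 1.52 and 1.42 FPKM in control, and was called higher by 1.20 (SE 0.0981, limma adjusted p = 0.00136). Its partner Slc7a5, the light chain of a transporter of large neutral amino acids, had 62.0 and 60.9 FPKM in differentiation, against 77.5 and 78.6 FPKM in control, and was called lower (log2 fold change -0.34). The within-pair difference was 1.54. All 5333 exonic bases of BC048644 lie within the spans of other genes, and 314 are shared with exons of Car5a. Car5a, a mitochondrial carbonic anhydrase gene, had 4.08 and 4.22 FPKM in differentiation, against 1.27 and 1.05 FPKM in control. It was called higher by 1.26 (limma adjusted p = 0.00120), and reads over shared bases cannot be assigned to 1 of the 2 genes without strand.

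BC048644 and Slc7a5 are among 8 pairs in which the lncRNA was called higher and the coding gene lower. The share is near the 9.59% of all head-to-head pairs, those between coding genes included, called in opposite directions. The 8 pairs are given as a description. The other 7 are named here after their values were seen, as are the pairs given after them. E130317F20Rik had 8.46 and 8.74 FPKM in differentiation, against 5.95 and 5.79 FPKM in control, while Ptbp1, the gene of a splicing repressor, had 35.4 and 35.8 FPKM in differentiation, against 53.8 and 55.5 FPKM in control. Gm45494 had 2.68 and 3.06 FPKM in differentiation, against 1.98 and 2.13 FPKM in control, while Yap1, the coactivator of the Hippo pathway, had 9.37 FPKM in each differentiation library, against 15.3 and 15.8 FPKM in control. AC154171.1 had 1.84 and 2.67 FPKM in differentiation, against 1.04 and 1.05 FPKM in control, while the chromatin protein gene Dek had 25.0 and 23.3 FPKM in differentiation, against 36.5 and 34.1 FPKM in control. The log2 fold changes were 0.48 and -0.60 for E130317F20Rik and Ptbp1, 0.34 and -0.68 for Gm45494 and Yap1, and 0.66 and -0.53 for AC154171.1 and Dek.

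2810013P06Rik (6.90 and 7.79 FPKM in differentiation, against 3.94 and 3.56 FPKM in control) was higher by 0.81 and its partner Ankrd11, a chromatin regulator gene, lower (log2 fold change -0.28). Gm10941 was higher by 0.79 beside Pofut2, a protein O-fucosyltransferase gene, lower (log2 fold change -0.24). 2310010J17Rik was higher by 0.54 beside the clathrin assembly gene Picalm, lower (log2 fold change -0.14). AC153504.1 was higher by 0.43 beside Galnt4, an enzyme gene of mucin-type O-glycosylation, lower (log2 fold change -0.31). The within-pair differences of the 8 pairs ran from 0.68 to 1.54, as values that follow from how the pairs were picked. In 6 of the 8 the lncRNA shares no exonic base with its partner, but it may overlap other genes. AC153504.1 shares 841 of its 2290 exonic bases with Poc1b, and all 2137 of 2810013P06Rik lie within the span of another gene. The count of such pairs is not stable: 3 or 4 pairs were called in opposite directions when any library was left out.

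**Figure D5:**
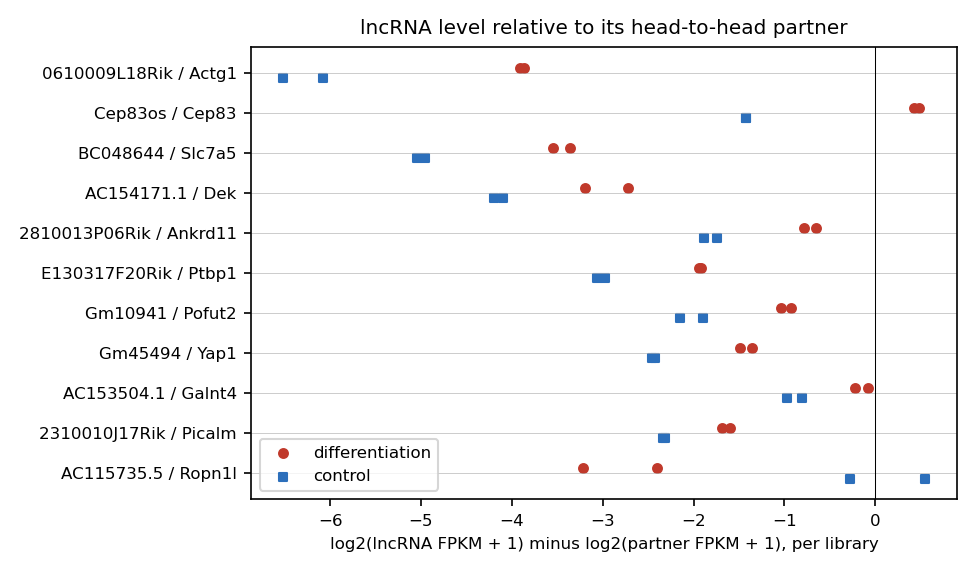
Difference of log2(FPKM + 1), lncRNA minus coding partner, in each library for Cep83os, 0610009L18Rik, the 8 pairs with the lncRNA higher and the partner lower, and AC115735.5; circles are differentiation and squares control libraries. The differentiation libraries lie to the right of the control libraries in every pair shown except AC115735.5 and Ropn1l, and the within-pair change runs from -2.95 to 2.41.

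In 21 pairs lncRNA and partner were both called higher, and in 11 of these the lncRNA shares no exonic base with its partner. Such a lncRNA can still lie inside the partner, as all 646 exonic bases of Gm38560 lie within the span of Txnrd1. All 675 exonic bases of Gm44140 lie within the span of Atf7ip, and 83 are shared with its exons. Without knowledge of strand, reads over such bases cannot be assigned to 1 of the 2 genes. Gm44140 had 8.003 and 7.86 FPKM in differentiation, against 3.12 and 3.59 FPKM in control, and Atf7ip, a partner of the histone methyltransferase Setdb1, had 11.7 and 11.9 FPKM in differentiation, against 6.08 and 5.88 FPKM in control. AC155729.1 was higher by 0.98 beside the histone demethylase gene Kdm7a, which was higher by 0.53. AA386476 was higher by 1.03 beside Ing2, a reader of methylated histone H3, which was higher by 0.65. Gm20337 was higher by 1.09 beside the splicing factor gene Srsf5 (0.46), and AC154276.1 by 0.47 beside Wapl, which releases cohesin from chromosomes (0.29).

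Gm40709 had 2.63 and 2.39 FPKM in differentiation, against 0.584 and 0.776 FPKM in control, and its partner Agpat3, an acyltransferase gene of phospholipid synthesis, was higher by 1.40. 4921507G05Rik had 1.09 and 1.93 FPKM in differentiation, against 0.155 and 0.117 FPKM in control, and Mok, a kinase gene, was higher by 1.35. Gm2449 was higher by 0.87 and its partner Wdr48, a cofactor of deubiquitinases, by 0.98. Gm4129 was higher by 0.92 beside the deubiquitinase gene Usp15 (0.65), 3110083C13Rik by 0.67 beside Micu2, a regulator of mitochondrial calcium uptake (0.56), and Gm38560 by 0.63 beside the thioredoxin reductase gene Txnrd1 (0.33). The remaining pairs were Gm4890 with Mmaa, 9530018F02Rik with Fut8 and CT025624.2 with Kcnma1. In these 21 pairs the within-pair difference passed with the lncRNA above its partner in 8 and below it in 1, which was 1700030M09Rik and 1700018B08Rik at -1.13. The other 12 gave no call for the difference. Without the second differentiation library, 12 pairs in all were called in the same direction, against 22 with all libraries, of which 1, Gm16793 with Mfhas1, was lower.

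In 11 pairs the lncRNA was called higher and the partner was not, and the within-pair difference, which is not independent of these calls, passed in all 11. The partner changes in this set did not exceed 0.33 in size on the log2 scale. AC139638.1 had 2.78 and 2.29 FPKM in differentiation, against 0.423 and 0.532 FPKM in control, beside Yeats4, a histone acetylation reader gene with 20.4 and 22.1 FPKM in differentiation, against 20.9 and 20.7 FPKM in control. Gm26708 had 1.96 and 2.20 FPKM in differentiation, against 0.512 and 0.290 FPKM in control, beside Abhd17c, a depalmitoylase gene with a log2 fold change of 0.02. 4930547M16Rik was higher by 1.10 beside Mfsd4b4 (-0.14), and 2810029C07Rik by 0.81 beside the kinase gene Mark3 (0.05).

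The 8 pairs that passed with the lncRNA below its partner held 6 lncRNAs with no call beside a coding gene that was higher, of which 5 are described. Pgbd1 was higher by 1.03 beside 4930470G03Rik (-0.26), although they share 539 exonic bases. Acsf3, Arg1 and Rab3ip were higher by 0.43, 0.58 and 0.23 beside Gm39271 (-0.43), Gm36172 (0.15) and 4933412E12Rik (-0.14). Ropn1l with AC115735.5 was another. A further 2 of the 8 pairs are 1700030M09Rik with 1700018B08Rik and D430020J02Rik with Ncapg2, whose difference of -0.30 was lost without any of the 4 libraries (limma adjusted p of 0.0757 to 0.131).

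In the authors' deposited table, 37 of the 122 lncRNAs were higher and 3 lower at an adjusted p under 0.05, against 22.0% higher and 20.3% lower of all 31600 features there. Of the 40 called higher here, 33 were higher in the authors' deposited table, as were 2 of the 3 lower ones in their direction. The authors' deposited table also called 4 higher and 1 lower among the 33 lncRNAs left out here by the filter.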

How the data were processed

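Per the labels, total RNA was depleted of ribosomal RNA and sequenced from 2 differentiation and 2 control samples of mouse spermatogonial stem cells. The submitters' processing notes name HISAT2 and GRCm38; they do not state how genes were counted or whether strand was used. The authors deposited FPKM per gene with biotypes, and log2 fold changes and p-values from an unnamed test. Values were taken as deposited. All features averaging 0.5 FPKM or more were tested by limma 3.58.1 (R 4.3.3) on log2(FPKM + 1) with a trend, two-sided, with Benjamini-Hochberg adjustment over 23138 features; with 2 residual degrees of freedom, the variance is shared across features. An exact permutation test of 2 against 2 libraries cannot go below 0.333. Fragments were recovered from FPKM steps and GENCODE M21 exonic lengths (96.2% of values under 300 fragments whole within 0.05). Partners were found by position in GENCODE M21 on GRCm38. Members, lists and tests were chosen with earlier results of these data known. Text names up to 8 lncRNAs per direction by size of change with a group mean of at least 1 FPKM, the 6 most abundant, those whose symbol names a coding gene, their partners, and the 6 pairs differing most. Intervals of counting error were not computed. The partners of some lncRNAs are not reported here.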

Additional observations from a re-analysis of the deposited data

How the results depend on the processing

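The 40 higher and 3 lower lncRNAs, the 22 pairs called in the same direction and 8 in opposite directions, and the median log2 fold change of 0.36 moved most with the filter and the libraries. With a mean of at least 2 FPKM only 41 lncRNAs were tested: 25 were higher (61.0%, against 34.8% of all features), which are all 25 higher lncRNAs still tested. Of the 41, 1 was lower, against 30.9% of all features. There, 13 pairs had the same direction and 5 opposite directions, and the median was 0.58. With no filter, 6 were lower, 5 pairs were opposite and the median was 0.21. The median was 0.49 with a pseudocount of 0.1 and 0.51 with limma-voom on recovered fragments. The latter called 5 of 89 lower, against 30.5% of all features. Leaving out 1 library, 26 to 35 were higher, 0 to 1 lower, 12 to 19 pairs had the same direction and 3 to 4 opposite, and the median was 0.30 to 0.38. Quantile normalization and median centring called 36 and 38 higher (40.4% and 42.7%), against 25.0% and 26.2% of all features. By symbol, 1 pair was called in the same direction; by position it was 22, also with starts within 300 bases.

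Replicate numbers do not pair the samples (correlation of deviations -0.000408). The replicate block called 36 higher and 3 lower, against 28.1% and 25.0% of all features. With it, 20 pairs had the same direction and 4 opposite directions. Of the named genes not called, Zfp787 changed sign without the first control library (0.013, range to -0.019 over the libraries left out). The difference within 1700120B22Rik and Herc4 did so without the first differentiation library (0.0057, range to -0.112). Over named genes, 356 results kept direction and call, 15 gained and 17 lost the call. Over named pairs, 146 kept both and 18 lost the call. The cause of these changes was not tested. Low fragment counts limit scarce members.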
